A study of Mus musculus with 6 samples.

Results

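Transcripts of 78 genes for patterning transcription factors were followed in cultures of mouse bone marrow-derived mesenchymal stem cells (MSCs, adherent stromal cells that can form bone, fat and cartilage). They were chosen by name among the 15634 genes listed, as protein-coding genes of the Hox, Tbx, Fox, Meis, Pbx, Sine oculis homeobox, Irx and Twist families, with Foxc1 left out. This gave 32 Hox, 6 Tbx, 23 Fox, 3 Meis, 4 Pbx, 5 Sine oculis, 3 Irx and 2 Twist genes. The rule used names alone, but could reach only genes with a row, and each row had at least 10 counts in at least 3 libraries.

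All cultures came from wild-type (WT) C57BL/6J mice and were kept in α-MEM with 15% fetal bovine serum. The Control group held 3 libraries of untreated cells, and 3 further libraries, the TNF group, came from cells that received TNF-α, an inflammatory cytokine, at 10 ng/mL for 24 h. The labels do not name the bone that gave the marrow, and leave it unsaid whether replicates were grown or taken separately. The p-values below therefore reflect the spread among these samples, which may be technical. The comparison asks which transcripts differ after TNF-α.

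Hox genes lie in 4 chromosomal clusters (a to d), and their paralog number follows their order along each cluster. Low numbers are used toward the head and high numbers toward the tail and the far end of the limbs, and adult stromal cells keep much of this code from the place where they arose. Pbx and Meis proteins are homeodomain factors of the TALE class, which bind DNA together with Hox proteins and sharpen their choice of sites. T-box (Tbx), forkhead (Fox), Sine oculis, Irx and Twist factors set limb, body wall, muscle and skeletal identity, and some Fox factors also serve metabolism and the cell cycle.

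Total counts were between 45629973 and 77142418 per library, of which 76463 to 126312 fell on the 78 genes. Levels are compared between genes in TPM (transcript abundance scaled to gene length and library) and between groups in CPM (counts scaled to library size with edgeR's TMM factors). Sums over the patterning genes are given in TPM, with the CPM sum beside them where it moved the other way. Means are given ± SD with n = 3 libraries, Control first. Of the TPM in TNF library 2, 19.8% belonged to 18S ribosomal RNA, against 1.07% to 3.51% in the other libraries, so its TPM values are lower across genes. All 12 MSC markers had a row, with Pdgfrb at 366 ± 11.4 CPM in Control but Lepr at 0.475 ± 0.197 CPM and Thy1 at 4.78 ± 1.35 CPM. All 15 macrophage markers had a row too. Their summed level was 2228, 3301 and 2195 CPM in Control libraries 1, 2 and 3 and 2127 to 2245 CPM in TNF libraries, highest in Control library 2. Single macrophage markers (those named were picked after their values were seen) moved both ways. In TNF 6 of 15 were lower (Cx3cr1 -1.95, C1qc -1.46 and Mrc1 -1.33 on the log2 scale) and 4 higher (Cd74 2.92, Cybb 2.26). Of the 12 MSC markers 7 were called, 3 lower and 4 higher. The shares were 40% lower and 26.7% higher for macrophage markers and 25% and 33.3% for MSC markers. Over all genes they were 16.4% and 16%. In Control library 2, 45 of the 75 tested members (60%) had their lowest Control value, against 41.8% of all tested genes. Of 8 endothelial markers 3 had a row, summed to at most 3.74 CPM, and of 12 markers of other blood lineages 2 had a row. Bulk RNA cannot tell fewer cells of a type from less RNA per cell, and the part of macrophages in the results below was not tested.

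Of the 78 genes, 75 had enough counts for the test. The quasi-likelihood test of edgeR, at a Benjamini-Hochberg adjusted p under 0.05 over all tested genes, called 12 of them higher and 19 lower in TNF, in all 41.3% against 32.4% of the 15547 genes tested. The share called higher was 16% of the members and 16% of all genes, and the share called lower was 25.3% against 16.4%. Changes of at least 2-fold were called for 12 of the 75 tested members, against 11% of all genes. Of the 75, 8 fell so far (5.22% of all genes did) and 4 rose so far (5.81% of all genes did). The CPM of the groups did not overlap for 46 of the 75 (17 above and 29 below in TNF), where 48.7% of all genes tested showed this. The median log2 fold change was -0.09 over members and -0.0046 over all tested genes, and the median size of change was 0.38 against 0.28. The genes left untested were Hoxa2, with 4 to 14 counts per library, Tbx5 with 5 to 18 and Six3 with 5 to 18. With Control library 2 and TNF library 2 both left out, 12 members were called higher and 21 lower. The largest fitted falls were those of Irx3, Irx5 and Hoxa10, and the largest rises those of Tbx10, from very few reads, Foxs1 and Foxp4. Tbx10, which met the minimum for a row only through the TNF libraries, is among the 12 called higher and the 4 that rose at least 2-fold.

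**Figure D1:**
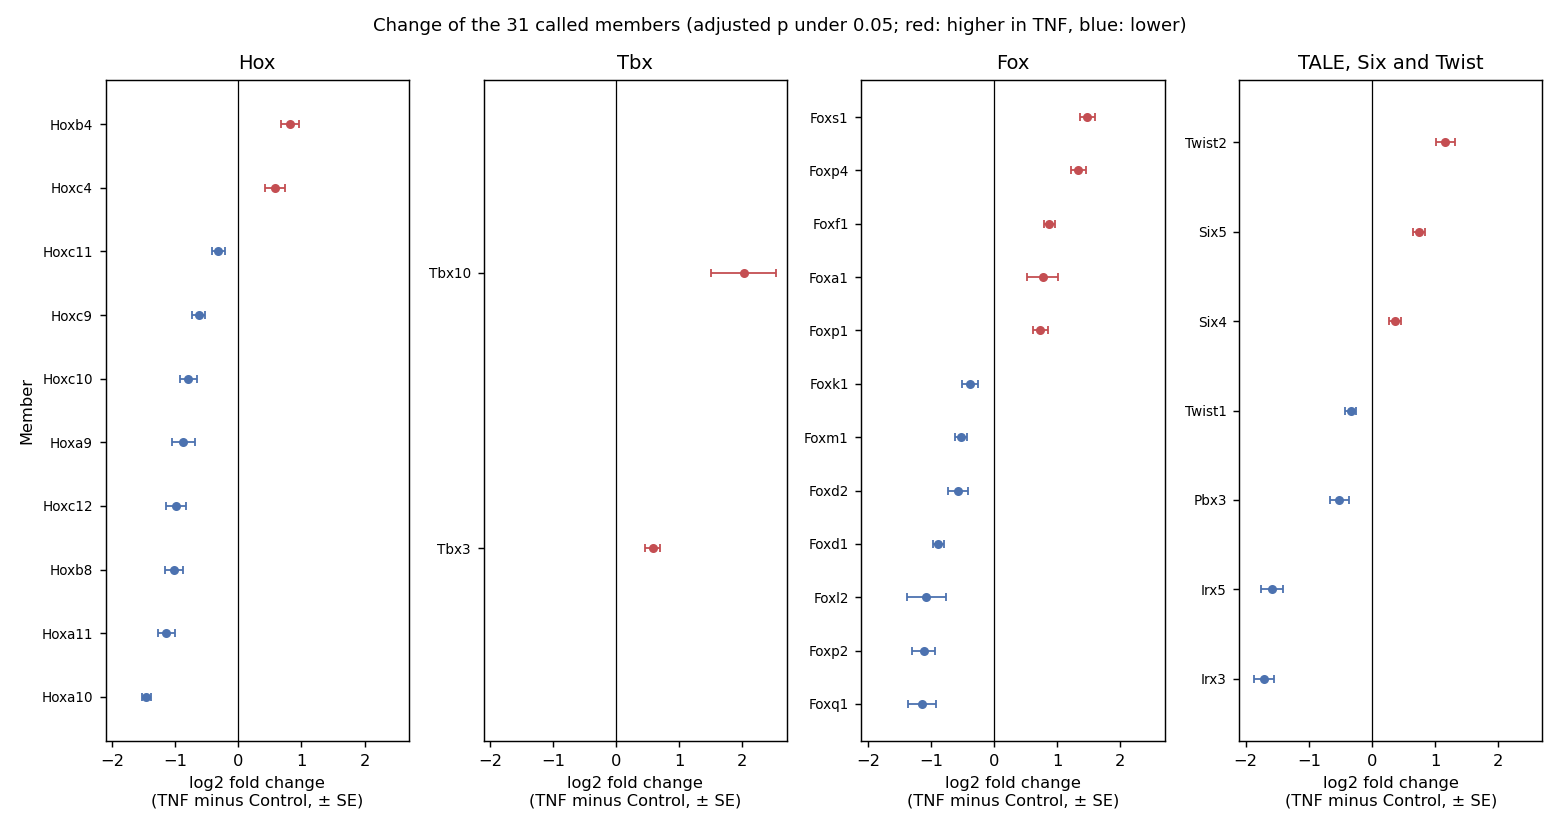
Log2 fold change (TNF minus Control, horizontal axis) with its SE for each of the 31 called genes (adjusted p under 0.05), by family, with rises in red and falls in blue. Of the Hox genes 8 lie on the left in blue and 2 on the right in red, while the Fox genes spread from -1.13 (Foxq1) to 1.48 (Foxs1).

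Promoter sequences are shown for 4 of the genes whose transcripts changed: Irx3, which fell most, Foxp4, among the largest rises, and the pair Twist1 and Twist2, which moved in opposite directions. Each runs 5′ to 3′ on the gene's strand over 300 bases, from 250 before the annotated start to 50 after it, from RefSeq on build GRCm38.p6, while the authors name build GRCm39. The windows lie at chr8:91801605-91801904 (minus strand, Irx3), chr17:47924583-47924882 (minus, Foxp4), chr12:33957421-33957720 (plus, Twist1) and chr1:91801211-91801510 (plus, Twist2). Capitals mark matches on either strand and at any position in the window. The letters sought were TATAAA (as in the TATA box), CCAAT (as in the CCAAT box), TGACAG (a Meis-type site) and TGTTTAC (a forkhead site). Also sought were the interferon-response core (2 copies of GAAA with any 2 bases between), TTCNNNGAA (a STAT-type site) and the NF-kB (kB) consensus. Position was not used, so a TATAAA match need not be a TATA box.
Irx3: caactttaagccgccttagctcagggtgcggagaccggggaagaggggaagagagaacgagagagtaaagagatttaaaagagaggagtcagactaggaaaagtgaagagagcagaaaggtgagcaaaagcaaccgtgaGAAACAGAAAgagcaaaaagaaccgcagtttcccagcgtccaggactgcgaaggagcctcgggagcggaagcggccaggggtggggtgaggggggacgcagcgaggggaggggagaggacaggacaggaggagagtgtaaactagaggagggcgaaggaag
Foxp4: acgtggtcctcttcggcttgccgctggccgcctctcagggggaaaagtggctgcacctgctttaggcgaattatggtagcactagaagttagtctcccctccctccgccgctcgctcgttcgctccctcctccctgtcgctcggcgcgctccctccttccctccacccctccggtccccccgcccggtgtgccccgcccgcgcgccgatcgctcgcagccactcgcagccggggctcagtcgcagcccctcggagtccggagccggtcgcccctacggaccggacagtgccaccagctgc
Twist1: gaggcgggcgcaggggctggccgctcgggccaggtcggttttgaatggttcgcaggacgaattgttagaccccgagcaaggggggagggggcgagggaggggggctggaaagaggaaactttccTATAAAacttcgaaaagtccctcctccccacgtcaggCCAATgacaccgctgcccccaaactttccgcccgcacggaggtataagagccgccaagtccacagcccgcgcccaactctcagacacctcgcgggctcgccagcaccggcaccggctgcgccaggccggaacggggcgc
Twist2: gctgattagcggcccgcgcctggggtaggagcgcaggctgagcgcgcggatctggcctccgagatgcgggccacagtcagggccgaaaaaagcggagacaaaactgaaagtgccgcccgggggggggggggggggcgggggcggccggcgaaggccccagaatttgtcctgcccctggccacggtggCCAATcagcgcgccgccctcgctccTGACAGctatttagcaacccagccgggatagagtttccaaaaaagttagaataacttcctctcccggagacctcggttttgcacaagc

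The RefSeq table held 48 such windows for 44 of the 78 genes. Twist1 carries TATAAA, found in 13.6% of all 32851 windows of this length and in 10.4% of the members' windows, while Twist2 carries TGACAG (19.2% and 22.9%). Both carry CCAAT (37.4% and 52.1%), and Irx3 carries the interferon-response core (3.44% and 4.17%). The Foxp4 window holds none of these letters. The kB consensus was found in windows of Foxd2 and Foxj2, 4.17% of the members' windows against 4.51% of all, TGTTTAC in 2.08% against 3.65%, and TTCNNNGAA in 4.17% against 8.3%. These matches are letters in a sequence and were not shown to be bound.

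In Control cells the Hox transcripts were led by 2 genes of paralog group 10. Of the 39 mouse Hox genes in RefSeq, 32 had a row: all 11 of Hoxa, all 9 of Hoxc, 8 of 10 Hoxb and 4 of 9 Hoxd. Hoxb1, Hoxb13, Hoxd1, Hoxd3, Hoxd11, Hoxd12 and Hoxd13 were not analysed here. Hoxc10, a posterior gene expressed in the lumbar region and hindlimb, had the highest mean Control level of all 78 genes, with 136, 90.4 and 142 TPM in libraries 1, 2 and 3. Hoxa10, which patterns the limb and uterus, had 59.8, 51.6 and 56.6 TPM, and Hoxa9, its neighbour in the cluster, had 34.9, 19.8 and 37.1 TPM. Hoxc13, best known from hair follicles, and Hoxc6, a thoracic gene, followed at a mean of 18.9 and 18.6 TPM. Hoxc10 lay apart from the next Hox gene in every Control library, whereas Hoxc13 and Hoxc6 overlapped.

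By cluster, Hoxc held 55.6% ± 1.84 and Hoxa 31.3% ± 0.832 of the summed Hox TPM in Control, and Hoxb 6.80% ± 0.513 and Hoxd 6.31% ± 0.593 (n = 3). By paralog number, the posterior groups 9 to 13 held 77.9% ± 0.569, the central groups 4 to 8 held 19.7% ± 0.789 and the anterior groups 1 to 3 held 2.37% ± 0.307. Group 10 alone held 48.6% ± 0.523. Within this group the levels differed widely, since Hoxd10 had only 0.203 to 0.341 TPM in Control. Hoxa13, of the outermost limb, stood at 0.990 ± 0.0337 TPM.

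Other position genes gave the following levels in the same libraries. Pitx1, which is known to give the hindlimb its identity, had a mean of 43.7 TPM in Control. Tbx5, the forelimb T-box gene, had 0.0889 TPM and 9 to 13 counts per Control library. Tbx4, the hindlimb T-box gene, had no row and was not analysed here, so its level is not known. Shox2, a gene of the upper limb skeleton, and Prrx1, of limb bud mesenchyme, had a mean of 127 and 229 TPM. Pitx1, Shox2 and Prrx1 are not among the 78 genes, and were picked after their values were seen.

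**Figure D2:**
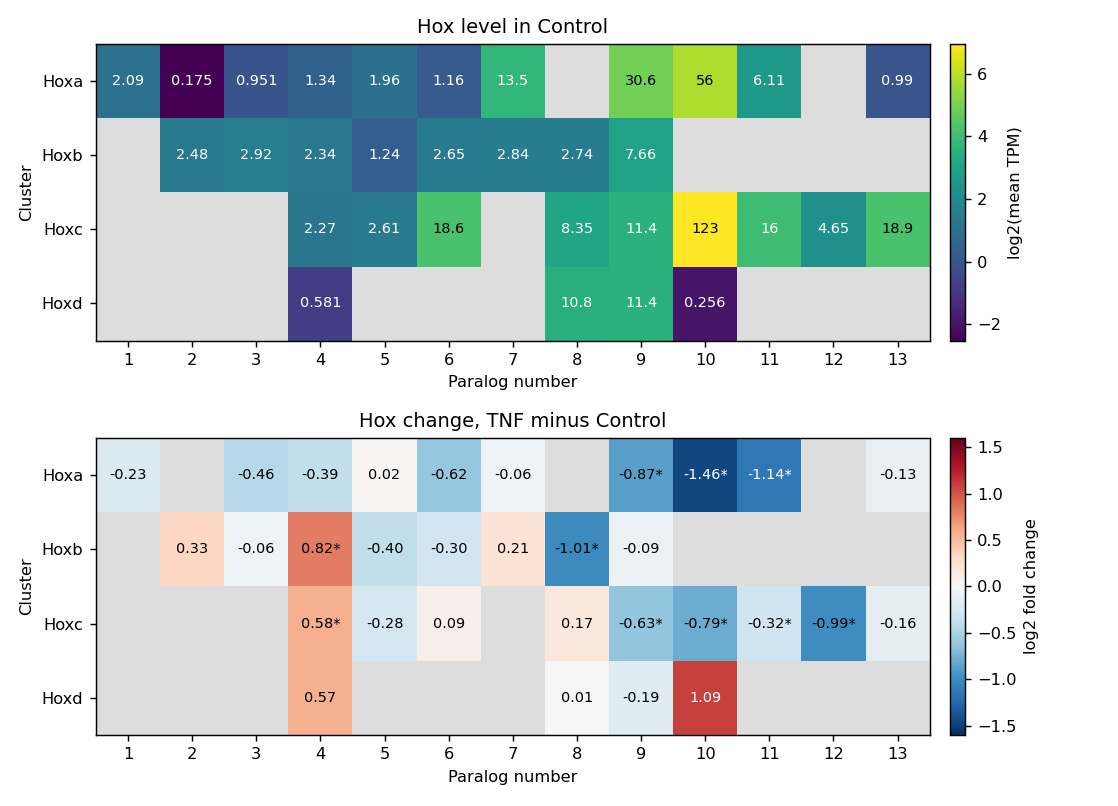
Hox genes laid out by paralog number (horizontal) and cluster (vertical). The upper panel gives the mean TPM of the 3 Control libraries, coloured on a log2 scale, and the lower panel the log2 fold change, with a star where the adjusted p was under 0.05; grey squares stand for no gene, no row or, in the lower panel, no test. Falls with a star sit mostly at groups 9 to 12, and the stars of rises at group 4.

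After TNF-α 7 posterior Hox genes of clusters a and c fell, Hoxa13 and Hoxc13 of these clusters were not called, and 2 genes of paralog group 4 rose. Among all 12 posterior genes 7 fell and 0 rose. Among the 15 central genes 1 fell and 2 rose, and of the 4 tested anterior genes 0 were called. Lower calls were thus 58.3% of posterior and 6.67% of central genes, beside 16.4% of all genes; the difference between the zones was not tested. Over all 31 tested Hox genes 8 fell and 2 rose, with a median log2 fold change of -0.19. The share of Hox genes called, 32.3%, was close to the 32.4% of all genes, with 25.8% lower (16.4% of all genes) and 6.45% higher (16%).

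Hoxa10 had 58.2, 58.2 and 56.2 CPM in Control libraries 1, 2 and 3 and 20.6, 20.9 and 21.3 CPM in TNF libraries 1, 2 and 3. The groups lay far apart, and libraries within each differed little. Its log2 fold change was -1.46 ± 0.07 SE (adjusted p = 1.67e-06 by edgeR), the smallest adjusted p of the members. Hoxa9 had 33.1, 20.9 and 33.7 CPM and then 16.6, 17.4 and 14.002 CPM, so that Control library 2 lay nearest to the TNF libraries. It fell by 0.87 on the log2 scale, and by 1.06 without Control library 2. Hoxa11, which patterns the forearm and lower leg, went from 7.54, 8.71 and 6.68 CPM to 3.22, 3.78 and 3.44 CPM (-1.14 ± 0.13 SE, adjusted p = 0.000251 by edgeR).

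Hoxc10 had 131, 100 and 142 CPM in Control and 74.2, 75.1 and 66.0 CPM in TNF, again lowest in Control library 2 and without overlap (-0.79 ± 0.13 SE, adjusted p = 0.00195 by edgeR). Its neighbours Hoxc9 (-0.63), Hoxc11 (-0.32) and Hoxc12 (-0.99) also fell. The Hoxc11 call was lost on leaving out any library but Control library 2 (highest adjusted p 0.142). Hoxc13, at the end of the cluster, had 23.3, 27.4 and 26.3 CPM and then 23.1, 23.03 and 22.9 CPM, no call (adjusted p = 0.199). Neither Hoxa13 (adjusted p = 0.614), Hoxb9 (0.426) nor Hoxd9 (0.126) was called. Outside the posterior groups, Hoxb8 fell from 2.64, 2.66 and 2.78 CPM to 1.25, 1.30 and 1.43 CPM, with no overlap (-1.01 ± 0.15 SE).

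The genes that rose were Hoxb4, a gene known from blood stem cells, and Hoxc4. Hoxb4 had 3.71, 2.94 and 3.23 CPM in Control and 5.21, 6.49 and 5.74 CPM in TNF (0.82 ± 0.14 SE, adjusted p = 0.00203 by edgeR). Hoxc4 went from 2.74 ± 0.387 to 4.10 ± 0.556 CPM (n = 3) and lost its call in 10 of 18 alternatives. It was lost on leaving out library 2 or 3 of either group (highest adjusted p 0.0733), or library 2 of both. Scaling by library totals, the replicate number as a block and limma on log2 TPM lost it too. Hoxd4 (0.57, adjusted p = 0.111) and Hoxa4 (-0.39, adjusted p = 0.229), paralogs of Hoxb4 and Hoxc4, were not called. Hoxd10 had 11, 27 and 12 counts in Control and 36, 15 and 30 counts in TNF, a log2 fold change of 1.09 that was not called (adjusted p = 0.0535, and 0.0268 to 0.194 when 1 library was left out, below 0.05 without Control 2 and without TNF 2).

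Hoxc6 (17.3, 13.7 and 17.4 CPM in Control and 17.5, 18.8 and 15.05 CPM in TNF) overlapped between groups. The remaining 13 tested Hox genes were not called either, with log2 fold changes from -0.62 (Hoxa6) to 0.33 (Hoxb2). Pairs of paralogs were also compared within each library. The log2 ratio of Hoxa10 to Hoxc10 counts was -1.17, -0.78 and -1.33 in Control and -1.85, -1.85 and -1.63 in TNF, and that of Hoxa11 to Hoxc11 was -1.17, -0.86 and -1.52 and then -2.19, -1.83 and -1.98. The ratio of Hoxa9 to Hoxc9 was 1.18, 0.62 and 1.014 and then 0.73, 0.85 and 0.58, groups that overlapped (two-sided exact permutation p = 0.3). The ratios for groups 10 and 11 were lower in every TNF library (two-sided exact permutation p = 0.1, the smallest that 3 against 3 libraries allow). Of 10 such ratios, chosen with the values known, 7 reached this p, which is 0.143 after Benjamini-Hochberg adjustment over the 10, so none passed a threshold of 0.05.

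Summed over the 32 Hox genes, the level was 401, 297 and 408 TPM in Control and 257, 221 and 238 TPM in TNF. Groups did not overlap. The posterior share of the summed Hox TPM was 77.3%, 78.5% and 77.9% in Control and 67.5%, 66.9% and 67.1% in TNF, while the central share went from 19.7% ± 0.789 to 29.4% ± 0.0936 (n = 3). The summed central level itself was 73.0 ± 14.8 TPM in Control and 70.3 ± 5.12 TPM in TNF. In CPM this central sum moved the other way, from 74.2 ± 10.5 in Control to 77.02 ± 1.72 in TNF. The posterior sum was 287 ± 46.9 TPM in Control and 160 ± 12.7 TPM in TNF. Group 10 went from 48.6% ± 0.523 to 36.1% ± 0.623, and group 4 from 1.78% ± 0.107 to 3.71% ± 0.341. These shares are within each library, so 18S reads do not enter them. Hoxc10 remained the Hox gene of highest mean TPM in TNF, at 66.7 ± 5.34 TPM.

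**Figure D3:**
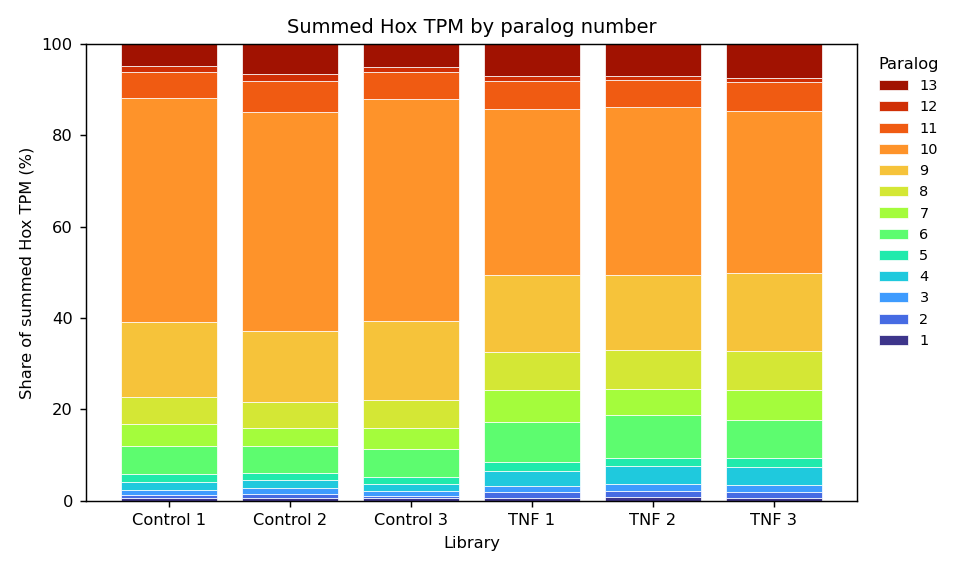
Share of the summed Hox TPM (vertical axis, percent) held by each paralog number in each of the 6 libraries. Group 10, in orange, takes 48.0% to 49.0% of each Control bar and 35.5% to 36.6% of each TNF bar.

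Noncoding RNAs named for these loci were measured as well. Hoxa11os, transcribed opposite to Hoxa11, fell from 2.58 ± 0.279 to 1.43 ± 0.209 CPM (-0.85), beside the fall of Hoxa11 itself. Hotair, from the Hoxc cluster, stood at 0.303 ± 0.0292 CPM in Control and 0.453 ± 0.0467 CPM in TNF, no call (adjusted p = 0.136), and Hotairm1 was not called either (0.236). By GENCODE M21 on GRCm38, 22 of the 78 genes overlap another listed gene, 12 of them on the same strand, Hoxc10 with Hoxc5 among these. The library kit keeps the strand, but whether the counting used it is not given in the sources used here, so reads of such pairs may be shared.

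Of the TALE factors that work with Hox proteins, 7 Meis and Pbx genes were tested. Among them 1 fell (14.3%, close to the 16.4% of all genes) and 0 rose. Pbx2 had 46.3, 39.7 and 48.9 CPM and then 48.0, 48.2 and 44.0 CPM. Its groups overlapped. Pbx3 fell from 22.6, 17.0 and 24.7 CPM to 16.1, 15.9 and 12.9 CPM (-0.52), a call lost on leaving out any library but Control library 2 (highest adjusted p 0.0972). Meis1 had 10.6 ± 0.709 and 9.35 ± 0.597 CPM (adjusted p = 0.163), and Meis2 (0.10), Meis3 (0.06) and Pbx4 (-0.52, adjusted p = 0.0841) were not called. A p above the threshold does not show that these partners stayed the same. Summed over Meis and Pbx, the level was 155 ± 30.1 TPM in Control and 151 ± 11.5 TPM in TNF. In CPM the sum moved the other way, from 272 ± 37.6 in Control to 292 ± 19.0 in TNF.

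Irx3 and Irx5, neighbouring Iroquois genes that act together in limb, heart and fat tissue, fell together. Irx3 had 70.2, 52.6 and 81.7 CPM in Control and 20.6, 22.7 and 18.9 CPM in TNF (-1.72 ± 0.16 SE, adjusted p = 6.72e-05 by edgeR). Irx5 had 51.9, 38.6 and 59.6 CPM and then 17.99, 18.1 and 13.97 CPM (-1.59 ± 0.17 SE, adjusted p = 0.000162). Both were lowest in Control library 2 among the Control libraries, and even that library lay above each TNF library. Without it the log2 fold changes were -1.87 and -1.74. The log2 ratio of Irx3 to Irx5 counts was 0.43, 0.44 and 0.45 in Control and 0.20, 0.33 and 0.44 in TNF (two-sided exact permutation p = 0.2, adjusted 0.222 over the 10 ratios). Irx3os, which overlaps Irx3 on the other strand, fell from 1.04 ± 0.177 to 0.357 ± 0.0787 CPM (-1.54). Irx2, of another Iroquois cluster, stood at 1.001 ± 0.141 CPM in Control and 1.36 ± 0.118 CPM in TNF, no call (adjusted p = 0.119).

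Of the Sine oculis genes, muscle and craniofacial homeodomain factors, Six5 rose from 9.12, 8.89 and 9.75 CPM to 16.4, 14.9 and 15.2 CPM (0.74 ± 0.09 SE, adjusted p = 0.000271 by edgeR), with no overlap. Six4 rose from 13.8 ± 0.241 to 17.9 ± 1.85 CPM (0.37) a call lost on leaving out Control library 1 or 3 or TNF library 1 or 2 (highest adjusted p 0.0618). Six2 had 11 to 38 counts per library and was not called.

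Twist1 and Twist2, basic helix-loop-helix factors that restrain osteoblast differentiation, moved in opposite directions. Twist1 was the more abundant, at 66.5, 55.2 and 69.6 TPM in Control against 3.40, 3.25 and 4.41 TPM for Twist2. Twist1 fell from 53.4, 51.0 and 58.0 CPM to 42.0, 45.5 and 41.0 CPM (-0.34 ± 0.08 SE, adjusted p = 0.0150 by edgeR), a call lost on leaving out Control library 3 or TNF library 1 or 3 (highest adjusted p 0.0737). Twist2 rose from 2.15, 2.37 and 2.90 CPM to 6.27, 5.08 and 5.20 CPM (1.16 ± 0.15 SE, adjusted p = 0.000538 by edgeR). The log2 ratio of Twist2 to Twist1 counts was -4.63, -4.43 and -4.32 in Control and -2.74, -3.16 and -2.98 in TNF, higher in all 3 TNF libraries (two-sided exact permutation p = 0.1, the smallest possible). Twist1 remained the more abundant in TNF, at 47.7 ± 1.70 TPM against 7.84 ± 1.43 TPM.

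Of the T-box genes, Tbx15, which shapes the limb and trunk skeleton and marks some fat depots, was the second most abundant of the 78 genes in Control. It had 242, 158 and 261 CPM in Control and 227, 233 and 184 CPM in TNF, groups that overlapped (-0.04 ± 0.18 SE, adjusted p = 0.888 by edgeR). Tbx18, of mural and limb mesenchyme, had 32.9, 31.5 and 29.7 CPM and then 29.1, 32.8 and 29.3 CPM, and Tbx2 had 9.46, 8.59 and 10.4 CPM and then 9.83, 7.86 and 9.15 CPM. Neither was called. Tbx3, the limb and mammary paralog of Tbx2, rose from 10.6, 9.05 and 11.7 CPM to 16.1, 16.3 and 14.3 CPM (0.58 ± 0.11 SE, adjusted p = 0.00502 by edgeR). The Tbx3 call was lost in limma on log2(TPM + 1) or log2(TPM + 0.1), with an adjusted p of up to 0.145. Tbx10 had 7, 2 and 7 counts in Control and 13, 14 and 25 counts in TNF (2.02 ± 0.52 SE, adjusted p = 0.0171 by edgeR). With so few counts that fold change is uncertain, and without TNF library 3 the gene was not called (adjusted p = 0.0571). Tbx10 reached 10 counts only in the TNF libraries, so it met the minimum for a row only through the group where it was high. Its call is therefore no support for a rise. No tested T-box gene was called lower, and of the same 5 genes the test called 2 higher, Tbx10 among them.

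Of the 23 forkhead genes, all tested, 5 rose (21.7%, beside 16% of all genes) and 7 fell (30.4%, beside 16.4%). The rises were led by Foxs1, a forkhead gene of pericytes, which went from 19.99, 15.8 and 20.5 CPM to 57.1, 48.8 and 50.6 CPM (1.48 ± 0.12 SE, adjusted p = 2.96e-05 by edgeR). Foxf1, of splanchnic and lung mesenchyme, rose from 22.6, 25.6 and 21.4 CPM to 43.9, 42.9 and 41.2 CPM (0.88 ± 0.09 SE, adjusted p = 0.000120 by edgeR). In both genes each TNF library lay above each Control library. Its paralog Foxf2 was not called, with 12.99 ± 3.62 CPM in Control and 10.6 ± 0.605 CPM in TNF. The log2 ratio of Foxf1 to Foxf2 counts was 1.09, 0.58 and 0.94 in Control and 2.03, 2.11 and 1.89 in TNF (two-sided exact permutation p = 0.1). Foxa1, best known from liver and other endoderm, had 31 to 59 counts in Control and 39 to 79 in TNF (0.77, adjusted p = 0.0382). Its call was lost on leaving out library 1 or 3 of either group (highest adjusted p 0.118).

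All 3 measured FoxP genes, which encode repressors that pair with each other, were called, 2 upward and 1 downward. Foxp4 rose from 86.8, 71.8 and 93.5 CPM to 233, 203 and 201 CPM (1.33 ± 0.12 SE, adjusted p = 5.44e-05 by edgeR). Foxp1, known in lymphocyte and bone marrow stromal development, rose from 108, 87.2 and 108 CPM to 173, 186 and 145 CPM (0.73 ± 0.13 SE, adjusted p = 0.00225 by edgeR). Foxp2 fell from 11.5, 7.44 and 12.02 CPM to 5.29, 4.32 and 4.64 CPM (-1.11 ± 0.19 SE, adjusted p = 0.00203 by edgeR). None of the 3 overlapped between groups. On the length-scaled measure Foxp1 led the forkhead genes in Control (46.3 ± 9.43 TPM) and Foxp4 in TNF (103 ± 13.8 TPM). Foxp1 and Foxp4 overlapped in Control and did not in TNF.

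The FoxO factors, which insulin and growth factor signalling keeps out of the nucleus, were not called. Foxo1 had 45.0 ± 8.93 and 61.5 ± 7.79 CPM (0.45, adjusted p = 0.0562, and 0.0445 to 0.163 when 1 library was left out, below 0.05 without Control 1 and without TNF 3). Foxo3 had 62.3 ± 13.2 and 59.1 ± 6.98 CPM (-0.08, adjusted p = 0.731), and Foxo4 had 19.8 ± 3.52 and 15.2 ± 1.42 CPM (-0.39, adjusted p = 0.0599, and 0.0423 without Control 1). Of 17 known FoxO targets 3 rose (17.6%, beside 16% of all genes) and 4 fell (23.5%, beside 16.4%). The median log2 fold change of these targets was 0.12 beside -0.0046 for all genes. Sod2, the mitochondrial superoxide dismutase, rose by 2.96 and Bnip3, of mitophagy, by 0.93, while Bcl6, a repressor, fell by 0.59. Whether FoxO factors had a part in these changes was not tested.

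Among the forkhead genes that fell, Foxd1, of kidney and other stroma, went from 32.2, 27.7 and 31.7 CPM to 16.4, 17.1 and 16.1 CPM (-0.88 ± 0.09 SE, adjusted p = 0.000119 by edgeR). Foxq1 fell from 13.6, 9.29 and 15.6 CPM to 6.23, 6.95 and 4.41 CPM (-1.13). Foxl2, of the ovary and pituitary, fell from 0.722, 0.728 and 1.20 CPM to 0.338, 0.460 and 0.453 CPM (-1.07), a call lost on leaving out Control library 3 or any TNF library (highest adjusted p 0.0987). Foxd2 (-0.58) lost its call without Control library 1 or 3 or TNF library 1 (highest adjusted p 0.0883). Foxk1 (-0.38), a regulator of glycolysis and autophagy, lost its call without library 1 or 2 of either group (highest adjusted p 0.165). The count of forkhead genes that fell was 4 instead of 7 without TNF library 1.

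Foxm1, which drives genes of mitosis, fell from 29.6 ± 2.80 to 20.5 ± 0.463 CPM (-0.53 ± 0.09 SE, adjusted p = 0.00244 by edgeR). Of 10 known FoxM1 targets 10 fell (100%, beside 16.4% of all genes) and 0 rose. The median log2 fold change of these targets was -0.88. Cenpf, of the kinetochore, fell by 1.07, the phosphatase Cdc25b by 1.06 and the mitotic kinase Aurkb by 0.89. Whether FoxM1 had a part in these falls was not tested, and the list was chosen with earlier results of these data known.

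The abundant Foxn3, a repressor, had 64.2, 58.6 and 60.9 CPM in Control and 52.2, 60.6 and 47.1 CPM in TNF, and Foxk2 had 47.3, 54.1 and 44.5 CPM and then 49.4, 52.6 and 53.8 CPM. Neither was called, nor were Foxc2 (adjusted p = 0.0573), Foxj2 (0.0873), Foxj3 or Foxn2. Foxn3 was called without TNF library 2 (adjusted p = 0.0417), and Foxj2 with scaling by library totals, with the replicate block, and without library 2 of both groups. Summed over the 23 forkhead genes the level was 314, 260 and 306 TPM in Control and 452, 379 and 403 TPM in TNF, so the groups did not overlap. That sum was carried by few genes, among them Foxp4 (43.2 and 103 TPM), Foxs1 (28.6 and 75.3), Foxp1 (46.3 and 73.7) and Foxf1 (17.5 and 30.6). Over the family the median log2 fold change was -0.20, and 15 of 23 genes lay below 0.

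**Figure D4:**
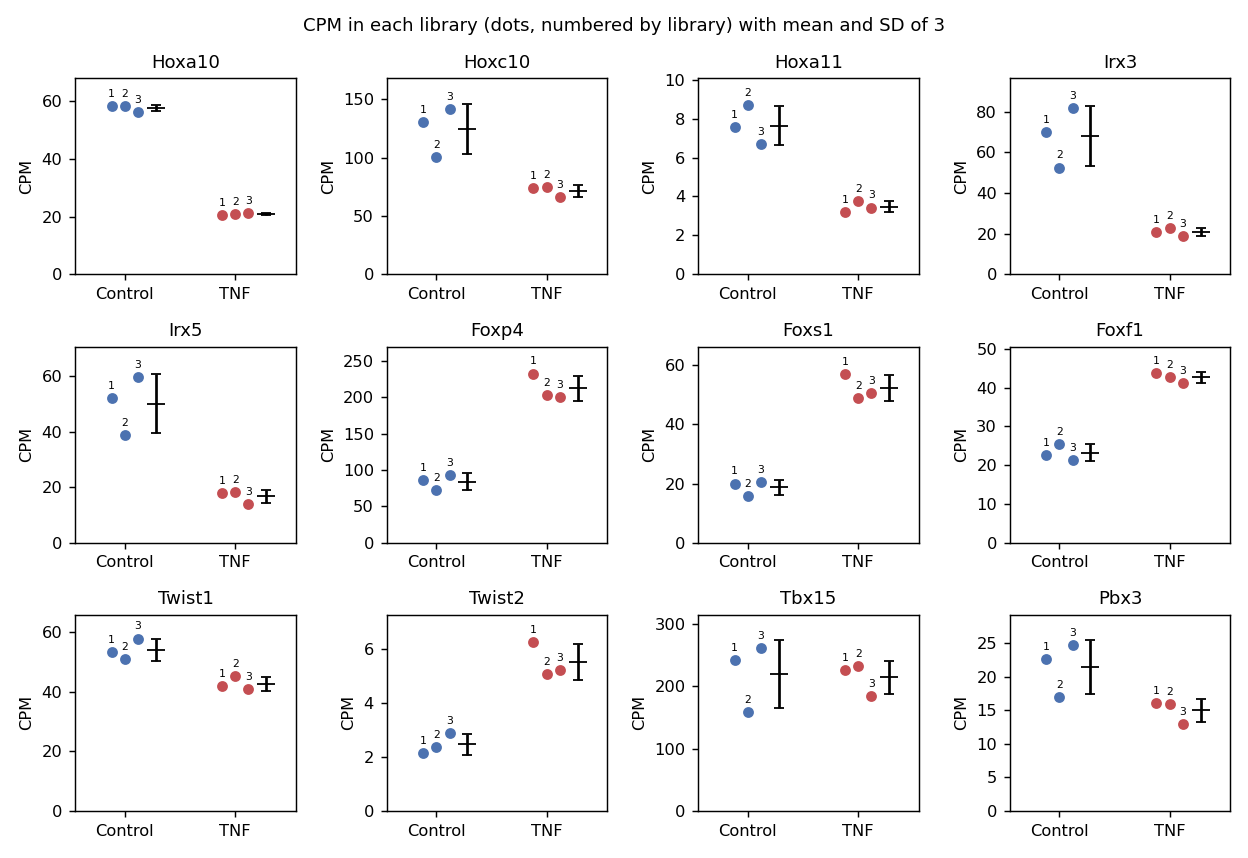
CPM (vertical axis, from 0) of 12 genes in each library, with points numbered by library and the mean and SD of 3 beside them. Hoxa10, Hoxc10, Hoxa11, Irx3, Irx5, Twist1 and Pbx3 lie lower and Foxp4, Foxs1, Foxf1 and Twist2 higher in all 3 TNF libraries, while Tbx15 overlaps.

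Genes around these factors were taken from lists of partners, targets and regulators. Of 26 tested limb, craniofacial and mesoderm patterning factors outside the 78, 10 fell (38.5%) and 2 rose (7.69%). Over all genes 16.4% were called lower and 16% higher. The median log2 fold change of these 26 was -0.46. Dlx5, of bone and jaw, fell by 2.73, Prrx2 by 0.90 and the Hedgehog effector Gli2 by 0.94. Pitx1 went from 56.9 ± 8.96 to 38.6 ± 1.40 CPM (-0.56, adjusted p = 0.00668 by edgeR) and Shox2 from 208 ± 29.4 to 135 ± 7.85 CPM (-0.62), while Prrx1 was not called (477 ± 40.5 and 405 ± 8.92 CPM, adjusted p = 0.107).

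Of 10 tested homeodomain partners and loop-extension factors outside the members, 5 fell (50%) and 1 rose (10%), beside 16.4% and 16% of all genes. Eya4 (-1.02) and Eya1 (-0.67), phosphatases that work with Sine oculis proteins, fell, and the TALE repressor Tgif1 rose by 0.94. Of 11 Twist partners and related factors 4 fell (36.4%, beside 16.4% of all genes) and 2 rose (18.2%, beside 16%). Snai2 (-1.29), which represses epithelial genes, and the Twist competitors Id1 (-1.25) and Id4 (-1.61) were among those that fell.

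Retinoic acid sets Hox expression in the embryo. Of 15 tested genes of its pathway 8 fell (53.3%, beside 16.4% of all genes) and 3 rose (20%, beside 16%). The median log2 fold change of these 15 was -0.38. Cyp26b1, which degrades retinoic acid, fell from 126 ± 11.8 to 41.1 ± 3.13 CPM, and Crabp2, which carries it to the nucleus, from 6.62 ± 0.703 to 1.40 ± 0.130 CPM. Rdh10, of its synthesis, rose from 39.7 ± 1.54 to 85.8 ± 1.57 CPM, whereas Aldh1a1 (-0.96) and Aldh1a3 (-1.38), also enzymes of its synthesis and named after their values were seen, fell. Polycomb and Trithorax proteins hold Hox genes off or on. Of 24 such regulators 4 fell (16.7%, beside 16.4% of all genes) and 0 rose, and their median log2 fold change was -0.03. Kdm6b and Kdm6a, demethylases that remove the Polycomb mark, fell by 0.61 and 0.37, and Ezh2, which writes it, by 0.56.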

How the data were processed

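RNA of 6 libraries (3 Control, 3 TNF) was measured with the SMART-Seq Stranded Kit, per the labels. Trim Galore, STAR, StringTie and Salmon and build GRCm39 are named in the submitters' processing notes, without versions. The authors deposited an expected count (estimated count) per gene, in whole numbers, with no gene column, and TPM with gene names. A title line calls the counts normalized, but library totals differ, so they were used as counts. Count and TPM lines were joined by position: the 260 zeros of each fell on the same lines. All 15634 rows had at least 10 counts in at least 3 libraries, so weaker genes could not be studied.

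Counts were fitted in edgeR 4.0.16 with R 4.3.3 (filterByExpr, TMM factors, glmQLFit, glmQLFTest, group only, two-sided), and 15547 genes were tested. The SE is the absolute log2 fold change divided by the square root of F. Alternatives used DESeq2 1.42.0, limma 3.58.1 on log2(TPM + 1) or log2(TPM + 0.1), and others given below. On simulated data for this comparison, 48% of 50 genes changed 1.5-fold, 80% of 50 changed 2-fold and 93.9% of 49 changed 4-fold were called, and 16 of 15203 unchanged genes. The simulation drew genes independently and changed far fewer genes than the 32.4% called in the real data. Its rates need not be those of the real comparison. The members, families and lists were chosen with earlier results of these data known. By rule, values per library were given for members changed over 2-fold, the 5 most abundant and the 3 of smallest adjusted p in each family; every called member and up to 3 called genes per list were named. Single values of some uncalled members that this rule covers are not reported here. Replicates of a group differed beyond sampling noise.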

Additional observations from a re-analysis of the deposited data

How the results depend on the processing

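Of the 31 called members 20 were called in every alternative that tested them (up to 18 each), 21 in all repeats without 1 library, and 0 changed sign. Of the 44 uncalled members 6 (Hoxa3, Hoxd10, Foxj2, Foxn3, Foxo1 and Foxo4) were called in some alternative. Over those repeats 9 to 12 members were called higher and 13 to 18 lower in TNF (12 and 19 with all libraries), 1 to 2 and 7 to 8 Hox genes, 1 to 2 T-box genes higher, 4 to 5 and 4 to 6 forkhead genes (4 without TNF 1), and 2 to 3 and 2 to 4 TALE, Sine oculis and Twist genes. The replicate number as a block gave 10 members higher and 15 lower, with 1 Hox gene higher, and kept 24 of the 31 calls. Same-numbered libraries did not deviate together (correlations of -0.01, -0.30 and -0.22), so the numbers are not taken as pairs. At an adjusted p under 0.01, 1587 genes were higher and 1534 lower, with 1 Hox gene and 1 T-box gene higher, 4 forkhead genes lower and 2 TALE, Sine oculis and Twist genes lower. Scaling by library totals called 1612 genes higher and 2571 lower (2489 and 2550 with TMM), 9 members higher and 20 lower, and 1 Hox gene higher. Log2(TPM + 1), log2(TPM + 0.1) and log2(TPM + 1) with a minimum of 1 TPM called 1477, 1470 and 1356 genes higher, with 1 Hox gene higher in each and 1, 1 and 0 T-box genes higher; the last called 7 members higher. A minimum of 1 CPM, which leaves fewer genes tested, gave 1 T-box gene higher. The cause of the other shifts was not tested.

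Sign changes touched 15 members, none of them called. With library totals the log2 fold change was -0.0618 (Hoxa5), -0.0104 (Hoxc6), -0.062 (Hoxd8), -0.0263 (Meis3), -0.0333 (Pbx2) and -0.0527 (Six2). With log2(TPM + 1) the log2 fold change was -0.0331 (Hoxa5), -4.85e-05 (Hoxc6), -0.0689 (Hoxd8), -0.00697 (Irx2) and -0.0346 (Six2). With log2(TPM + 0.1) the log2 fold change was -0.0426 (Hoxa5), -0.0757 (Hoxd8) and -0.132 (Six2). With the 1 TPM minimum the log2 fold change was -0.0331 (Hoxa5), -4.85e-05 (Hoxc6) and -0.0689 (Hoxd8). Without Control 2 and TNF 2 together the log2 fold change was -0.0891 (Hoxa5), -0.0843 (Hoxc6), -0.224 (Hoxc8), 0.00923 (Foxf2), 0.0187 (Foxj3), 0.00632 (Foxo3), -0.0717 (Meis2) and -0.0402 (Pbx2). With limma-voom the log2 fold change was -0.0546 (Six2). With the replicate block the log2 fold change was -0.0809 (Six2). Leaving out 1 library gave -0.0832 to 0.129 for Hoxa5, -0.216 to 0.0515 for Hoxa7, -0.0224 to 0.171 for Hoxc6, -0.0986 to 0.378 for Hoxc8, -0.108 to 0.0789 for Hoxd8, -0.23 to 0.108 for Tbx15, -0.154 to 0.000539 for Tbx2, -0.201 to 0.0982 for Foxo3, -0.0523 to 0.238 for Meis2, -0.0121 to 0.123 for Meis3, -0.0262 to 0.128 for Pbx2 and -0.427 to 0.224 for Six2. Members with under 100 counts per library, such as Tbx10, Hoxd10, Foxl2 and Six2, are limited by depth.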
